A study of Homo sapiens with 6 samples.

Results

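The spliceosomal small nuclear ribonucleoprotein (snRNP) core proteins were followed in HepG2, a human liver cancer cell line, after lentiviral delivery of a short hairpin RNA against circPRKAA1, a circular RNA named after the PRKAA1 gene. The 10 members were picked by gene symbol among 60612 genes of the table: the Sm ring proteins SNRPB, SNRPD1, SNRPD2, SNRPD3, SNRPE, SNRPF and SNRPG, and the U1-specific proteins SNRNP70, SNRPA and SNRPC. mRNA libraries were compared in 3 control samples (sh-ctrl) and 3 knockdown samples (sh-circPRKAA1). All 6 are unedited (labelled wild type) HepG2 cells that received lentivirus, so the infection is shared by both groups. The hairpin field of the knockdown samples counts up as circPRKAA1, circPRKAA2 and circPRKAA3, and the grouping rests on the titles, which name circPRKAA1 in all 3. The labels do not say whether replicates were separate infections or cultures, so each p-value below reflects variation from library to library that may be only technical. No row of the table names a circular RNA, so the knockdown itself was not measured here.

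Sm proteins assemble as a closed ring around a short uridine-rich stretch of each of the U1, U2, U4 and U5 small nuclear RNAs, and this ring is the shared core of the spliceosome's RNA-protein particles. The ring is built in the cytoplasm: PRMT5 and its partners methylate arginines of SNRPB, SNRPD1 and SNRPD3, and the SMN complex loads the proteins onto the RNA. U1 snRNP, which recognises the 5′ splice site, carries in addition SNRNP70 and SNRPA, which bind stem-loops of U1 RNA, and SNRPC, which stabilises the pairing of U1 RNA with the splice site.

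Library totals ran from 16284262 to 20282496 counts. Mitochondrial genes took 9.44% to 9.80% of control and 10.1% to 11.1% of knockdown counts. The 10 hepatocyte and HepG2 markers summed to 27984.5 to 29371 CPM (counts scaled to library size) in control and 28449.8 to 29492 CPM in knockdown libraries, whereas fibroblast markers stayed at 3.82 to 4.28 and 2.71 to 2.95 CPM and endothelial markers at 4.82 to 7.45 and 4.76 to 5.49 CPM, with KDR at 0. The sum was carried by abundant genes such as ALB and SERPINA1, and single hepatocyte markers moved: 5 of the 10 fell, namely HNF4A (log2 fold change -1.49), CEBPA (-1.34), APOA1 (-1.10), TTR (-0.48) and AFP (-0.33), and 2 rose, APOB (0.66) and FGB (0.59). Leukocyte markers summed to 781 to 856 CPM in control and 614 to 639 CPM in knockdown libraries, and nearly all of it was LYZ, the lysozyme gene. The part of these markers in the results below was not tested.

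Promoter windows of 3 members are shown because SNRPF fell furthest, SNRPB is the most abundant member and SNRNP70 is the member that rose. They were taken from RefSeq (GRCh38.p14) from 250 bases before to 50 bases after the start site, and a window was used only if its start lay within 100 bases of the principal transcript's start, which held for 5 of the 10 members. The windows are SNRPF at chr12:95858702-95859001 on the plus strand, SNRPB at chr20:2470740-2471039 on the minus strand and SNRNP70 at chr19:49085201-49085500 on the plus strand, printed 5′ to 3′ along the gene. Capitals mark every match, on either strand, to the motifs searched.
SNRPF: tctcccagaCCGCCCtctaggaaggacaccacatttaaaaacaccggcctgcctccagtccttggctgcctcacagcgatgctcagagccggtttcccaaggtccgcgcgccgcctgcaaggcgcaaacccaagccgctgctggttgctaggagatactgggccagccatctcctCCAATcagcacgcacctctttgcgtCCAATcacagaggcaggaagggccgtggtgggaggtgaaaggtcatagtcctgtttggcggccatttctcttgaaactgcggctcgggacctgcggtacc
SNRPB: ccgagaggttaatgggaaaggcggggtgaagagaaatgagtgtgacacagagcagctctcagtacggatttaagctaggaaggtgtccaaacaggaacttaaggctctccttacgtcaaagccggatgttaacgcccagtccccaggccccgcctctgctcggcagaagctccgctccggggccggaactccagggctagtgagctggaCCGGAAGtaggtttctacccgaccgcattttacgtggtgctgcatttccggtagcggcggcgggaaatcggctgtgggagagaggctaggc
SNRNP70: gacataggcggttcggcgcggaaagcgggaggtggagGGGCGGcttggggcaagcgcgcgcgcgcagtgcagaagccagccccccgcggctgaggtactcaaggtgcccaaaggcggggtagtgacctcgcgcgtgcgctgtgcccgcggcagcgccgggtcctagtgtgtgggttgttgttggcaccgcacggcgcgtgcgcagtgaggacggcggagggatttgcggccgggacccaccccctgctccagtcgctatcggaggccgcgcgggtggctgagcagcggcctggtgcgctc

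The capitals in the SNRPF window are a GC box match (GGGCGG, read on the opposite strand) and a pair of CCAAT box matches. The capitals in the SNRPB window are an ETS motif match (CCGGAAG), and those in the SNRNP70 window are a GC box match. Over the 5 usable windows, which also include SNRPC and SNRPD2, the GC box was found in 4, the ETS motif in 3, the CCAAT box in 2 and the TATA box (TATAAA) in 1. Among 34943 RefSeq promoter windows of the same length, the GC box was found in 44.9%, CCAAT in 34.6%, the TATA box in 11.6% and the ETS motif in 10.2%. The E-box CACGTG and the YY1 motif AAGATGGCG had no match in the 5 windows and were found in 7.23% and 1.75% of all windows. In the SNRPC window the ETS matches on opposite strands overlap each other. The TATAAA match is also in that window, read on the opposite strand at position -237 from the start site. The GC content of the printed windows was 60.3% for SNRPF, 58.3% for SNRPB and 72.3% for SNRNP70.

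Transcripts of 8 of the 10 members were lower in the knockdown, 1 was higher and 1 did not pass (edgeR quasi-likelihood test, Benjamini-Hochberg adjusted p under 0.05 over all 14990 genes tested). In the same comparison 32.4% of all tested genes were called lower, 36.1% higher and 68.4% either way, so the table as a whole moved widely. The 10 members, all of which passed the low-count filter, had a median log2 fold change of -0.65, beside 0.05 for all tested genes. In these bulk samples fewer cells that express a gene and less RNA per cell cannot be told apart. CPM is given below with TMM-scaled library sizes, and every log2 fold change is knockdown over control with its standard error (SE).

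**Figure D1:**
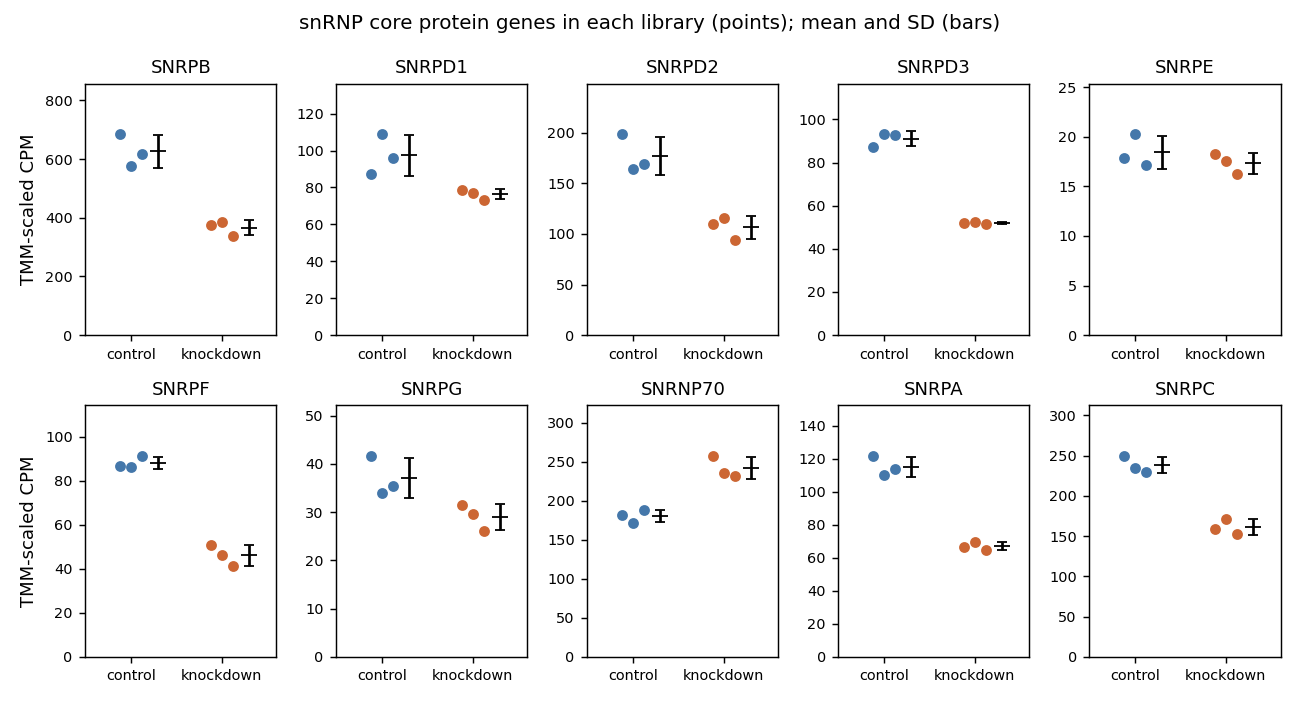
CPM of each of the 10 members in the 3 control and 3 knockdown libraries, with 1 point per library and bars at the group mean. The knockdown points lie below all control points for 8 members, above them for SNRNP70, and among them for SNRPE. Over all tested genes the groups did not overlap in 34.1% (lower), 38% (higher) and 72.1% (either direction).

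Within the Sm ring, 6 of 7 genes fell and SNRPE did not pass. SNRPF, which sits with SNRPE and SNRPG in the ring, fell furthest. Its control libraries held 86.9, 86.1 and 91.4 CPM and its knockdown libraries 50.8, 46.2 and 41.2 CPM. The groups did not overlap, as was so for 34.1% of all tested genes in the lower and 38% in the higher direction, 72.1% in all, and the log2 fold change was -0.94 (SE 0.09, adjusted p = 1.02e-07, edgeR), or 47.7% lower than control. SNRPF (ENSG00000139343) lies on chr12:95858928-95903828, plus strand.

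SNRPD3, the partner of SNRPB in the ring and a target of arginine methylation, held 87.1, 93.3 and 92.8 CPM in control and 52.1, 52.3 and 51.4 CPM in knockdown libraries. The knockdown libraries were nearly level with each other and below every control library. The log2 fold change was -0.81 (SE 0.07, adjusted p = 9.94e-08, edgeR), and the gene (ENSG00000100028) lies on chr22:24555958-24582052.

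SNRPB, which encodes the SmB and SmB′ proteins by alternative splicing, held 686, 575 and 617 CPM in control and 375, 386 and 338 CPM in knockdown libraries. It was the most abundant member in every library, and its groups did not overlap. The log2 fold change was -0.77 (SE 0.08, adjusted p = 3.74e-07, edgeR), and the gene (ENSG00000125835) lies on chr20:2461634-2470853, minus strand.

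SNRPD2, the partner of SNRPD1, held 199, 164 and 169 CPM in control and 110, 116 and 94.2 CPM in knockdown libraries. The control library 1 stood above the other control libraries, and all 3 knockdown libraries lay lower than any control. The log2 fold change was -0.73 (SE 0.09, adjusted p = 3.25e-06, edgeR), and the gene (ENSG00000125743) lies on chr19:45687454-45692569, minus strand.

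SNRPD1 and SNRPG moved less. SNRPD1, a methylated ring protein, held 87.1, 109 and 96.2 CPM in control and 78.5, 77.0 and 73.3 CPM in knockdown libraries, a log2 fold change of -0.35 (SE 0.09, adjusted p = 0.00169, edgeR). SNRPG held 41.7, 34.0 and 35.5 CPM in control and 31.5, 29.6 and 26.1 CPM in knockdown libraries, a log2 fold change of -0.35 (SE 0.10, adjusted p = 0.00730, edgeR). Neither gene's groups overlapped, and the nearest values were 87.1 and 78.5 CPM for SNRPD1 and 34.0 and 31.5 CPM for SNRPG. Both calls ended when library totals replaced TMM, at log2 fold changes of -0.16 and -0.15, and the members then counted 6 lower and 1 higher beside 23.7% lower and 45.5% higher among all genes. SNRPD1 (ENSG00000167088) lies on chr18:21612314-21633524 and SNRPG (ENSG00000143977) on chr2:70281362-70293740, minus strand.

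SNRPE held 17.9, 20.3 and 17.1 CPM in control and 18.3, 17.6 and 16.2 CPM in knockdown libraries. The groups overlapped, and the log2 fold change was -0.09 (SE 0.11, adjusted p = 0.480, edgeR). Its sign turned with the scaling, to 0.11 with library totals. SNRPE (ENSG00000182004, chr1:203861599-203871152) was also the least abundant member, with 267 to 389 counts per library, and counting error alone is 6.12% at 267 counts.

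The U1-specific proteins moved in opposite directions. SNRPA held 122, 110.0 and 114 CPM in control and 66.7, 69.7 and 64.7 CPM in knockdown libraries, a log2 fold change of -0.78 (SE 0.08, adjusted p = 1.75e-07, edgeR). SNRPC held 249.9, 235 and 229.9 CPM in control and 159, 172 and 152 CPM in knockdown libraries, a log2 fold change of -0.57 (SE 0.07, adjusted p = 4.02e-06, edgeR). Neither gene's groups overlapped. SNRPA (ENSG00000077312) lies on chr19:40750637-40765389 and SNRPC (ENSG00000124562) on chr6:34757505-34773857, both on the plus strand.

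SNRNP70, the U1-70K protein, held 182, 171 and 187 CPM in control and 258, 235 and 231 CPM in knockdown libraries. Every knockdown library lay above every control library, and the log2 fold change was 0.42 (SE 0.07, adjusted p = 7.84e-05, edgeR). SNRNP70 (ENSG00000104852) lies on chr19:49085419-49108605. GENCODE release 29 lists 10 transcripts for it, of which 3 are annotated as retained-intron and 3 as targets of nonsense-mediated decay, and the deposited table gives a single count per gene.

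**Figure D2:**
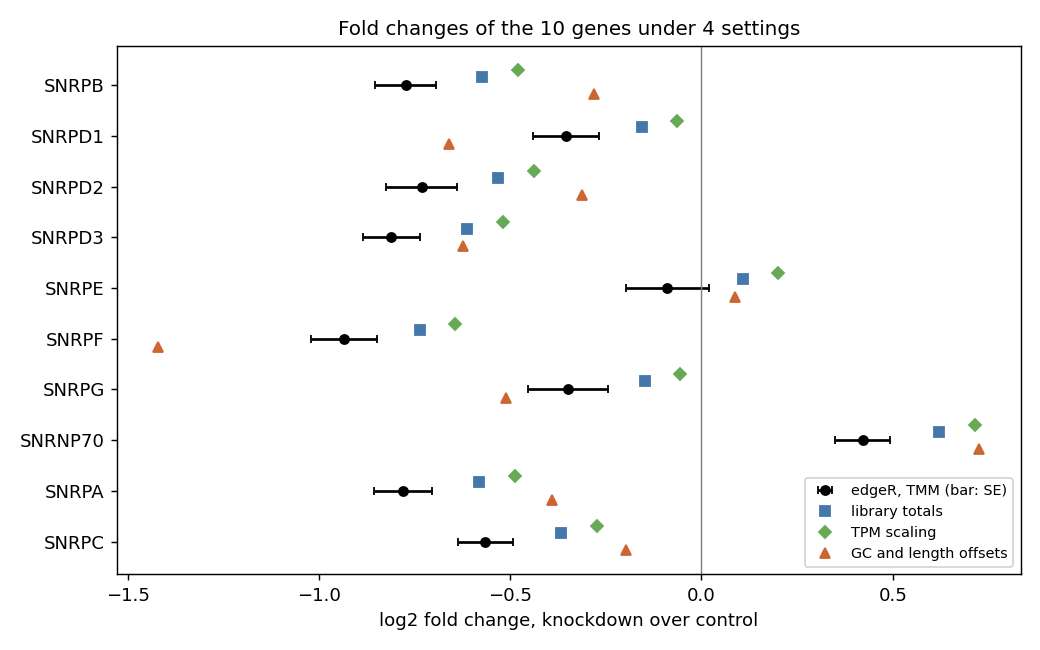
Log2 fold change of each member, knockdown over control, with its SE from the edgeR fit, beside the values under other scalings and under offsets fitted to GC content and length. SNRNP70 stays above 0 and 8 members stay below 0 under every setting drawn, while SNRPE crosses 0.

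Base composition and length went with the fold change across the whole table. Among tested genes of up to 42% GC the median log2 fold change was 0.48 and 10.2% were lower, and SNRPF, SNRPD1 and SNRPG belong to this group. Among genes above 58% GC the median was -0.32 and 21.0% were higher, and SNRPA and SNRNP70 belong to this group. Genes of up to 2000 exonic bases had a median of -0.26, and SNRPB, SNRPC, SNRPD2 and SNRPG are among them. SNRPF, SNRPD1, SNRPG and SNRNP70 thus lay on the other side of 0 from the median of their GC group. So did SNRPE, which did not pass, at -0.09 beside a median of 0.11 for genes above 42% and up to 50% GC.

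With per-library offsets for GC content and length the same 8 members were lower and the same 1 higher, beside 33.2% lower and 35.8% higher among all genes, but the sizes changed. SNRPF moved to -1.42, SNRPD1 to -0.66 and SNRNP70 to 0.73, further from 0 than without offsets. SNRPB moved to -0.28, SNRPC to -0.20, SNRPD2 to -0.31 and SNRPA to -0.39, nearer to 0. SNRPD3 was at -0.62, SNRPG at -0.51 and SNRPE at 0.09.

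Count ratios between members of the same library do not depend on any library scaling. These 6 pairs were chosen after their values were seen and are given with no test. SNRNP70 over SNRPA was 1.49, 1.56 and 1.65 in control and 3.87, 3.38 and 3.57 in knockdown libraries, so the knockdown ratio was 2.30 times the control ratio. SNRNP70 over SNRPC was 0.728, 0.729 and 0.816 in control and 1.62, 1.37 and 1.52 in knockdown libraries, 1.98 times the control ratio. The U1-specific transcripts were thus in other proportions in every knockdown library than in any control library.

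SNRPA over SNRPC moved less, from 0.488, 0.468 and 0.495 to 0.419, 0.406 and 0.425. Within the ring, SNRPF over SNRPE went from 4.86, 4.24 and 5.33 to 2.78, 2.63 and 2.55, which is 0.553 times the control ratio. SNRPB over SNRPD3 was 7.88, 6.17 and 6.65 in control and 7.20, 7.39 and 6.57 in knockdown libraries. These SNRPB to SNRPD3 ratios overlapped between groups. SNRPD1 over SNRPD2 was 0.438, 0.665 and 0.570 in control and 0.715, 0.664 and 0.778 in knockdown libraries, 1.31 times the control ratio. Its groups met only at 0.665 in control and 0.664 in knockdown. With GC and length offsets the log2 fold changes were -0.28 for SNRPB and -0.62 for SNRPD3. They were -0.66 for SNRPD1 and -0.31 for SNRPD2.

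**Figure D3:**
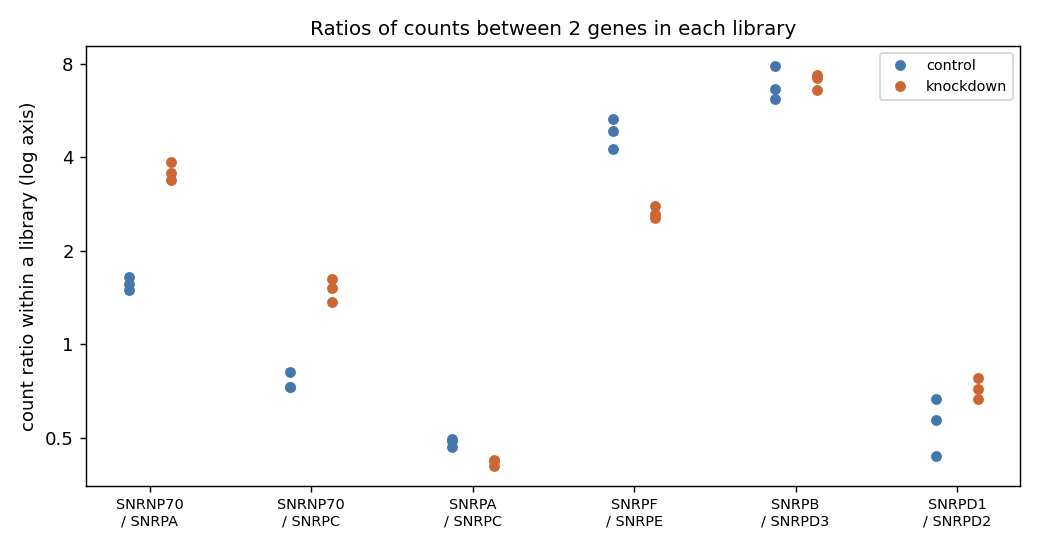
Count ratio of 6 member pairs in each library on a log axis, with control and knockdown points side by side. The ratios of SNRNP70 to SNRPA and to SNRPC are higher in every knockdown library, and that of SNRPF to SNRPE lower, while SNRPB to SNRPD3 overlaps.

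Levels between genes were compared per length, as FPKM (counts scaled to exonic length and to the library total). In control libraries the order was SNRPB at 456 ± 33.6, SNRPC at 179 ± 5.91, SNRPD2 at 103 ± 9.43, SNRPA at 45.6 ± 1.72, SNRNP70 at 35.9 ± 1.39, SNRPF at 27.0 ± 0.947, SNRPD3 at 21.7 ± 1.13, SNRPG at 19.6 ± 1.86, SNRPD1 at 18.7 ± 2.39 and SNRPE at 8.27 ± 0.833 FPKM (mean ± SD, n = 3). Neighbours in this order did not overlap between libraries, except SNRPD3 with SNRPG and SNRPG with SNRPD1.

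In the knockdown, SNRPB at 307 ± 18.3, SNRPC at 139 ± 6.43 and SNRPD2 at 70.9 ± 6.68 FPKM still led. SNRNP70, at 55.2 ± 3.63 FPKM, lay above SNRPA, at 30.5 ± 0.719 FPKM, which is the opposite of their control order in FPKM. That control order rests on the exonic lengths, 4684 bases for SNRNP70 and 2353 for SNRPA. In counts SNRNP70 was above SNRPA in every library of both groups. SNRPG at 17.6 ± 1.65, SNRPD1 at 16.8 ± 0.577 and SNRPF at 16.2 ± 1.70 FPKM came next, with SNRPD1 overlapping both SNRPG and SNRPF, and SNRPD3 at 14.2 ± 0.162 and SNRPE at 8.92 ± 0.534 FPKM followed (n = 3).

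**Figure D4:**
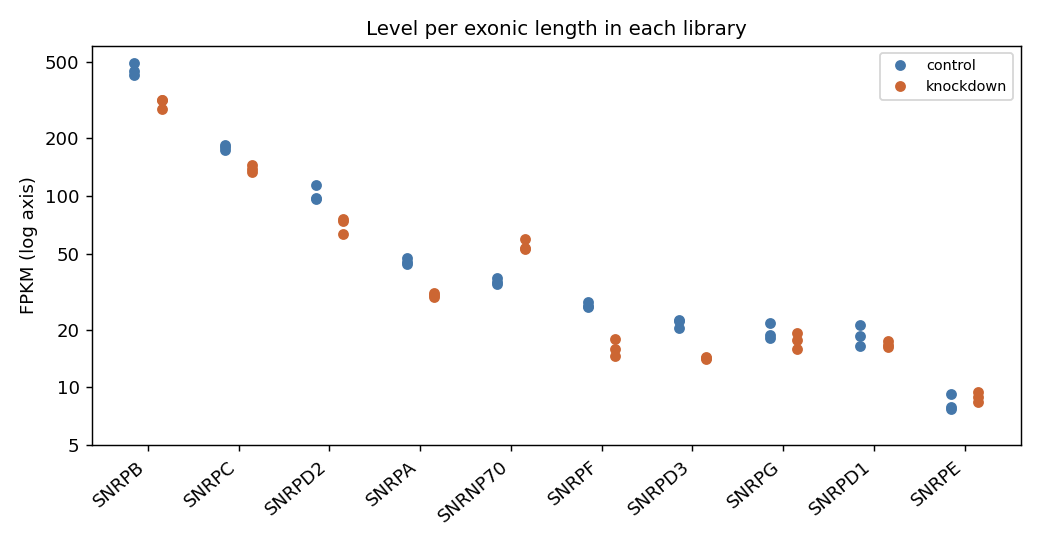
FPKM of the 10 members in each library on a log axis, ordered by control mean. SNRPB leads in both groups. On this exonic length SNRNP70 and SNRPA change places between control and knockdown, although SNRNP70 has more counts than SNRPA in every library.

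The order of the lower members depends on the length used. For SNRNP70 the principal transcript length was not computed, so its place on that length was not compared. The authors' exonic length joins all exons of a gene, 1764 bases for SNRPG, whereas its principal transcript has 625 bases. On principal transcript length the control mean was 55.2 FPKM for SNRPG and 18.5 FPKM for SNRPD1, which overlap on the authors' length. Summed over the ring, the 7 genes took 1082 to 1206 CPM in control and 640.2 to 725 CPM in knockdown libraries. SNRPB made up 69.7% ± 0.951 of the ring's FPKM in control and 68.0% ± 0.366 in knockdown (SD, n = 3), while the share of SNRPE was 1.27% ± 0.191 and 1.98% ± 0.0657 and that of SNRPG 2.99% ± 0.104 and 3.90% ± 0.179. These shares rest on the authors' exonic length, a choice that the SDs do not cover. On it the control means were 456 FPKM for SNRPB, 19.6 for SNRPG and 8.27 for SNRPE. On principal transcript length they were 505, 55.2 and 18.2 FPKM, so the shares depend on the length used.

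Processed pseudogenes of SNRPE and SNRPG also held counts. The table holds 55 rows of member pseudogenes, 15 of them with a count in any library and 4 abundant enough to be tested. Over all libraries their counts came to 67.5% of the gene's own for SNRPE and 40.3% for SNRPG, but only 0.156% for SNRPC and 0.183% for SNRPF. SNRPEP4, a copy of SNRPE, held 163, 264 and 277 counts in control and 206, 192 and 170 in knockdown libraries, a log2 fold change of -0.37 (adjusted p = 0.0247, edgeR). Among the SNRPG copies, SNRPGP10 and SNRPGP15 fell by 0.46 each on the log2 scale (adjusted p = 0.00639 and 0.0409, edgeR), and SNRPGP2, at -0.45, did not pass.

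How the authors' counting shared reads between such near-identical copies is not given in the sources used here, so the levels of SNRPE and SNRPG are uncertain. With pseudogene counts added to their gene, an alternative chosen after the data were seen, SNRPE was at -0.20 (adjusted p = 0.0780, edgeR) and SNRPG at -0.37.

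Overlapping genes touch 4 members, and whether counting used strand is not given in the sources used here. SNRPA shares 917 bases with C19orf54 on the opposite strand, which was at -0.16 and did not pass. SNRPD2 shares 87 bases with QPCTL on the opposite strand, which fell by 0.49 on the log2 scale (adjusted p = 0.000484, edgeR). SNRPF shares 36781 bases with CCDC38, which had 4 to 12 counts per library, and SNRPB shares 3642 bases with AL049650.1, which had 0 to 5.

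Genes listed as relatives of members, by sequence, by name or by a shared transcript, gave mixed values. SNRPN, which encodes a ring protein closely related to SNRPB, went from 221 ± 15.2 to 121 ± 4.66 CPM (n = 3), a log2 fold change of -0.87 (SE 0.07, adjusted p = 4.61e-08, edgeR). SNRPA1, the U2 A′ protein, went from 49.6 ± 2.58 to 37.6 ± 2.08 CPM, at -0.40 (SE 0.08, adjusted p = 0.000603, edgeR), a call that ended with library totals (-0.20) and TPM scaling (-0.10). The log2 fold change of SNRPB2, the U2 B″ protein and a relative of SNRPA, was -0.09 (SE 0.09, adjusted p = 0.373, edgeR), with groups that overlapped; its sign turned with library totals (0.11), while it was lower with GC and length offsets (-0.43) and without control replicate 1 (-0.17, adjusted p = 0.0395).

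The log2 fold change of SNURF, which shares its transcript with SNRPN and had only 0 to 22 counts per library, was 1.43 (adjusted p = 0.0398, edgeR). That call ended without control replicate 3 (0.81), without knockdown replicate 1 (1.09) and without knockdown replicate 3 (1.52), and with all libraries kept it ended under DESeq2 (1.42), quantile normalization (0.79) and the test against a fold of 1.2. The reads of SNRPN and SNURF cannot be separated where their exons coincide.

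Of the 6 genes of Sm methylation and delivery, 5 fell and 1 did not pass, beside 32.4% lower among all genes tested. The list median was -0.92 beside 0.05 for all genes. CLNS1A, which did not pass and was named after its value was seen, was at 0.02. It was at 0.22 with library totals and at -0.29 with GC and length offsets. The list counted 4 lower and 1 higher with library totals, and 6 lower with the offsets. The shares over all genes were 23.7% lower and 45.5% higher with library totals, and 33.2% and 35.8% with the offsets. WDR77, the partner of PRMT5, went from 88.8 ± 6.25 to 34.4 ± 1.78 CPM (log2 fold change -1.37), and PRMT5, the methyltransferase, from 237 ± 10.2 to 115 ± 5.07 CPM (-1.05). PRMT7, another arginine methyltransferase, was at -1.196 and COPRS, a PRMT5 cofactor, at -0.80, both past the test.

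In the SMN complex, 4 of 10 genes fell, 0 rose and 6 did not pass, with a median of -0.19, beside 32.4% lower and 36.1% higher among all genes tested, so the share that fell is near the background; SMN1 and SMN2 are near-identical copies whose counts are uncertain. Those that fell were GEMIN5 (-1.21), which recognises the small nuclear RNA, GEMIN4 (-1.15), GEMIN6 (-0.82) and GEMIN7 (-0.70). With library totals the same list counted 4 lower and 2 higher, with a median of 0.01, so the median's sign rests on the scaling. The shares over all genes were then 23.7% lower and 45.5% higher.

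Other snRNP proteins were also mostly lower, in a table where 32.4% of all tested genes were lower and 36.1% higher. In the LSm ring, the Sm-like ring of U6 snRNA and of mRNA decay, 6 of 8 genes fell and 1 rose, with a median of -0.59. LSM4 went from 204 ± 20.1 to 122 ± 2.35 CPM (log2 fold change -0.74). The 1 that rose, LSM8 at 0.25, was named after its value was seen. Its adjusted p was 0.0486 (edgeR), it was at -0.45 with GC and length offsets, and it was not called with median-of-ratios scaling, quantile normalization, no filter, DESeq2, the test against a fold of 1.2, or when any single library other than control replicate 2 was left out. Of 12 U2 proteins 9 fell and 2 rose (median -0.55), and SF3B1, the branch-site binding subunit, rose from 227 ± 46.3 to 546 ± 52.2 CPM (1.26). Of 17 U5 and U4/U6 proteins 15 fell and 2 rose (median -0.66), led by SNRNP40, a U5 protein, at -1.24. EFTUD2, the U5 GTPase, was at -0.78, PRPF6 at -0.68 and PPIH at -0.92. With TPM scaling, U2 proteins counted 7 lower and 2 higher, and U5 and U4/U6 proteins 10 lower and 2 higher. Among all genes 19.7% were then lower and 49.6% higher.

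Auxiliary factors of U1 went the other way. All 10 genes of this list rose in the edgeR fit, with a median of 0.96, beside 36.1% higher among all genes tested. TIA1, which binds uridine-rich sequence next to 5′ splice sites, went from 30.9 ± 7.13 to 139 ± 12.6 CPM (log2 fold change 2.16), LUC7L3 from 54.9 ± 15.4 to 182 ± 22.9 CPM (1.73) and PRPF39, named after its value was seen, from 8.51 ± 2.34 to 28.8 ± 4.61 CPM (1.74). RBM25 rose by 1.23 and DDX5, an RNA helicase, by 0.93. The count was 9 of 10 with GC and length offsets, median-of-ratios scaling, quantile normalization, no filter, DESeq2, the test against a fold of 1.2, and when any single library other than knockdown replicate 2 was left out. LUC7L2, named after its value was seen, was at 0.24 (adjusted p = 0.0389, edgeR) and at -0.15 with the offsets.

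**Figure D5:**
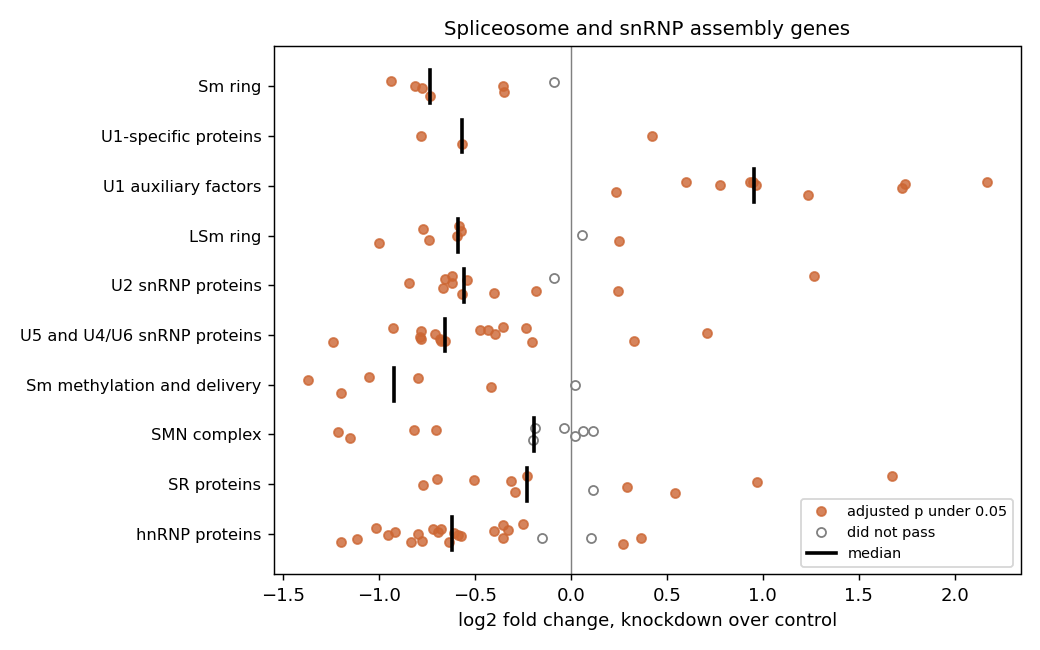
Log2 fold change, knockdown over control, of every tested gene in the Sm ring, the U1-specific proteins and the other spliceosome and assembly lists, with the median of each list. In this fit, without GC and length offsets, the U1 auxiliary factors lie above 0, and the medians of the Sm, LSm, U2, U5 and U4/U6 and Sm methylation lists lie below 0.

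The regulators of splicing that bind pre-mRNA were compared with the members as counts from the same fit. Of all genes tested, 32.4% were lower and 36.1% higher. Among 24 hnRNP genes, which code for abundant nuclear RNA-binding proteins, 20 fell and 2 rose (median -0.62). HNRNPM was at -1.199, HNRNPAB at -1.11, PTBP1, a repressor of exons, at -1.01 and HNRNPD at -0.91. Among 11 tested SR protein genes 6 fell and 4 rose (median -0.23), with SRSF11 at 1.67, SRSF10 at 0.97, SRSF2 at -0.77 and SRSF3 at -0.70. With TPM scaling 3 SR genes were lower and 5 higher, with a median of 0.06, and 15 hnRNP genes were lower and 3 higher. Among all genes 19.7% were then lower and 49.6% higher. With GC and length offsets 7 SR genes were lower and 3 higher, with a median of -0.39. The hnRNP genes then counted 21 lower and 1 higher, beside 33.2% lower and 35.8% higher among all genes. The small nuclear RNAs themselves could not be followed: of 24 genes in the list none was abundant enough to be tested, 13 were at 0 in every library and the rest summed to 5 to 16 counts per library.

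The genes most alike the members over the 6 libraries were picked by the Pearson correlation of log2 CPM with the members' mean standardised log2 CPM. They were RPL24 (0.999), a ribosomal protein, MRPL15 (0.999) and MRPS28 (0.999), both of the mitochondrial ribosome, LINC02323 (0.998), a long non-coding RNA, and ALKBH2 (0.998), a DNA repair dioxygenase. With 2 groups of 3 libraries such values follow the group difference that the points share, and 3315 tested genes reached 0.9 or more.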

How the data were processed

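HepG2 RNA was sequenced in 3 sh-ctrl and 3 sh-circPRKAA1 libraries, made with a SMARTER mRNA kit per the labels' protocols. The authors deposited raw counts per gene and FPKM values, per the file headers, with exonic gene sizes. Aligner, counter and strand setting: not given in the sources used here. Builds named with no role, per the submitters' processing notes, are GRCm38, mm10 and hg18; 96.3% of gene IDs are in GENCODE release 29 (GRCh38), and 99.9% of these overlap it in position, so GRCh38 coordinates are used. FPKM was recomputed from counts, exonic length and library totals, and differed from 5 deposited FPKM columns by at most 0.005. The number of per-sample columns not used, because the header carries no replicate number, is 1.

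Genes were kept with edgeR's filterByExpr (minimum count 10, minimum total 15), scaled by TMM and tested with the quasi-likelihood test (edgeR 4.0.16, R 4.3.3), with Benjamini-Hochberg adjustment over 14990 genes and a threshold of 0.05. SE is the log2 fold change divided by the root of the F statistic. Alternatives used DESeq2 1.42.0, limma 3.58.1 on log2(FPKM + 1) and log2(FPKM + 0.1), other scalings and filters, a minimum fold of 1.2, GC and length offsets (mgcv 1.9.3), a replicate block and each library left out in turn. The code was tested on simulated data. Promoter sequences come from RefSeq.

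Members and lists were defined by symbol, not by a cut on measured values, but were chosen with earlier results of these data known. Named genes are the members, their listed relatives, pseudogenes and overlapping genes. Also named are up to 4 genes per list with the smallest p, and the 5 most alike genes. Exceptions are marked. No 2 libraries were alike within counting noise. The counting error given for SNRPE covers counting only, whereas each SE and SD includes variation between libraries.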

Additional observations from a re-analysis of the deposited data

How the results depend on the processing

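Of the members, SNRPA, SNRPB, SNRPC, SNRPD2, SNRPD3, SNRPF and SNRNP70 kept their direction and call under every alternative run. SNRPD1 and SNRPG kept their direction but not their call under library totals, TPM scaling (-0.06 each), limma on FPKM and the test against a fold of 1.2 (adjusted p = 0.0904 and 0.130, edgeR). SNRPE, not called, changed sign under library totals (0.11), TPM scaling (0.20), limma on FPKM (0.10 and 0.11) and GC and length offsets (0.086). Leaving out each library in turn ended no member's call, and SNRPG without knockdown replicate 3 had the highest adjusted p of those called, 0.0499 (edgeR).

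TPM scaling left 2956 genes lower in place of 4852; it moved the median of all genes up by 0.29 and library totals by 0.20 on the log2 scale. Of all calls, 52.7% were higher under TMM, 65.7% under library totals, 71.6% under TPM scaling and 65.1% and 65.3% under limma on FPKM. SNRPB2 changed sign under library totals (0.11), TPM scaling (0.20), quantile normalization (0.066) and limma on FPKM (0.11 and 0.12). LSM14B, a Sm-like protein at -0.27, changed sign under TPM scaling (0.023) and offsets (0.012), and XPO1 passed in the other direction with offsets (-0.22). The cause was not tested.

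Replicate numbers shared between groups showed no pairing in the values. Deviations of same-numbered libraries correlated at -0.092, -0.149 and 0.041, and not every library correlated best with its own number. With 3 libraries per group such values cannot settle whether same-numbered libraries were made together. With the replicate block 5216 genes were higher and 4627 lower, in place of 5405 and 4852, and the members still counted 8 lower and 1 higher; the U1 auxiliary list counted 9 higher in place of 10 and the LSm ring 0 higher in place of 1. Among settings that kept all libraries, 67 values that count list members moved by more than 1.5 times. Most of them were counts of under 5 genes, and the values looked at covered the members, their listed relatives, named genes and lists. SNRPE, with 267 counts in its lowest library, and SNURF, with 0 to 22, are limited by depth.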

Other observations

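Other groups around snRNP biology were mixed, beside 36.1% higher and 32.4% lower among all genes tested. These background shares differ between settings. They were 45.5% higher and 23.7% lower with library totals, and 49.6% and 19.7% with TPM scaling. With GC and length offsets they were 35.8% and 33.2%, and against a fold of 1.2 they were 28.7% and 24.9%. Of 9 minor spliceosome genes tested, 4 rose and 4 fell, with SNRNP25 (-1.24) and ZMAT5 (-1.04), both of the U11/U12 particle, lower and RNPC3 (1.22), its RNA-binding subunit, higher, while ZCRB1 rose by 0.55 (0.11, not passed, with GC and length offsets). Of 14 genes of the Prp19 complex and related factors 6 rose and 3 fell, and PRPF19, its ubiquitin ligase, was at -0.96; with library totals the list counted 10 higher and 1 lower. Of 19 integrator and small nuclear RNA transcription genes 6 rose and 7 fell, shares near those of all genes, with INTS8 at 1.35, SNAPC4 at -0.98, INTS11, the endonuclease subunit, at -0.83 and INTS1 at -0.65; with TPM scaling 10 were higher and 3 lower, and with GC and length offsets 5 and 9. Of 6 U7 and other Sm-like genes 5 fell, and 2 fell with TPM scaling. Of 8 capping, export and import genes 3 rose and 1 fell, but 2 were higher and 5 lower with GC and length offsets, 2 and 3 without control replicate 1, 1 and 2 without control replicate 3, 1 and 1 without knockdown replicate 1, and 0 either way against a fold of 1.2. XPO1, the export receptor, was at 0.41 and at -0.22 with GC and length offsets, both past the test.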
